A study of Mus musculus with 16 samples.

Results

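Peaks of at least 1000 bp were rare in the R-loop maps of the mouse fibroblast line NIH/3T3, which derives from embryos, and they fell into unlike kinds of sequence in cells with and without XPO4. The regions described here are stretches of the genome that were covered by a single called peak of 1000 bp or more in at least 1 of 8 peak lists. They were found by keeping every such peak on chromosomes 1 to 19 and X and joining those that overlapped. The 8 lists held 640 such broad peaks among 76752 peaks, or 0.834%, and these joined into 353 regions chosen by peak width alone out of 50279 regions formed by all peaks together. The width of the called peak chose the regions, so the widths and the numbers of broad peaks below are descriptions and carry no test.

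The lists came from DNA-RNA hybrid immunoprecipitation sequencing (DRIP-seq) with the antibody S9.6, which binds hybrids of DNA and RNA. The cells were wild type (WT) or lacked Xpo4 (KO), which encodes exportin 4, a receptor that carries cargo out of the nucleus. The KO cells were a line made from the same fibroblasts with CRISPR-Cas9. Genomic DNA of every sample was digested by AluI, DdeI, MboI and MseI together. Before the pull-down it received RNase R, which digests linear RNA from its end and leaves circles intact (RNase R+), or only the reaction buffer (RNase R-). The 8 pulled-down libraries were KO RNase R-, KO RNase R+, WT RNase R- and WT RNase R+, with 2 replicates each; another 8 samples were inputs, which were not analysed here. Nothing in the labels says that replicates came from separate cultures, so the p-values measure the spread between these libraries, which may be technical. The lists hold no measure over the edited exon, so the genotype labels could not be checked in them.

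An R-loop forms when an RNA pairs with 1 strand of the DNA and displaces the other. R-loops are known at promoters with CpG islands, where the coding strand is rich in G, at the ends of active genes, in ribosomal DNA and at repeats such as satellites. The study compared these lists to ask whether circular RNAs that stay in the nucleus without XPO4 form R-loops. A peak in such a map is built from the restriction fragments that were pulled down, so its ends can lie where an enzyme cuts, and a stretch without any site is not cut by these enzymes.

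The 200 bases around the highest summit are shown for the 5 regions that were broad in the most lists, and for Malat1, Smtn and Ndst3, which were added after their values were seen as an example of a noncoding RNA, of a protein-coding gene of the KO lists and of a repeat of the WT lists. All are the plus strand of GRCm38, 5′ to 3′. Capitals mark the recognition sites of the 4 enzymes, which are TTAA for MseI, the sequence CTNAG with any base at N for DdeI, that of AluI, which is AGCT, and for MboI the site GATC.
Gm21738, chr14:19417173-19417372: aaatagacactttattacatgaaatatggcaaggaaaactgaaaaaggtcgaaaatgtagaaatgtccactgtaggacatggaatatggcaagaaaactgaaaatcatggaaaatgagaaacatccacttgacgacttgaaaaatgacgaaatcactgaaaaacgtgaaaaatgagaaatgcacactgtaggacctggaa
Zswim6 intron, chr13:107858958-107859157: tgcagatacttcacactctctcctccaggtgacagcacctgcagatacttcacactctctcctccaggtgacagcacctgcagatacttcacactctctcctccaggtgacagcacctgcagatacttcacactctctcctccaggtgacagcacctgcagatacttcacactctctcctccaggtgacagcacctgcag
Chromosome 4, outside genes, chr4:118547297-118547496: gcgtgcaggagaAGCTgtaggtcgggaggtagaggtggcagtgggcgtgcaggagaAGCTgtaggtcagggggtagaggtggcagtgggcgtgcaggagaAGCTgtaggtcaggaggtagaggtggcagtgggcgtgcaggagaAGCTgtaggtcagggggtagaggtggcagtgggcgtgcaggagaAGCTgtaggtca
CT010467.1, ribosomal RNA, chr17:39846703-39846902: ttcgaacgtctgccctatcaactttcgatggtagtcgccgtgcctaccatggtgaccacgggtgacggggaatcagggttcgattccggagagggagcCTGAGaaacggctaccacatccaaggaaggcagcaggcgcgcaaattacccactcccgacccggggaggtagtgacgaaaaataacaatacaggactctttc
Chromosome 1, mitochondrial-like, chr1:24614622-24614821: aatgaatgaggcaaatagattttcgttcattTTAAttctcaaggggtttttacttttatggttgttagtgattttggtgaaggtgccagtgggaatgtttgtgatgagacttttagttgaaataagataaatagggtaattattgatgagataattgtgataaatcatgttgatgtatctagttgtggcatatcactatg
Malat1, chr19:5801176-5801375: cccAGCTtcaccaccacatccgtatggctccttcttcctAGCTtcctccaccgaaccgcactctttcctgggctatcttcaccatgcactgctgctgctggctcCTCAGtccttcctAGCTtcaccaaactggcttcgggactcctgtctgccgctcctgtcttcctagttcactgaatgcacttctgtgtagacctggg
Smtn intron, chr11:3520375-3520574: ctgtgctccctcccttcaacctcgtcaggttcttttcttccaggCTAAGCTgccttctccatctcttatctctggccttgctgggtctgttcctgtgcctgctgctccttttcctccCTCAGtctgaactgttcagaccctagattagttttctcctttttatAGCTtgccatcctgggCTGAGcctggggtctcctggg
Ndst3 intron, chr3:123677139-123677338: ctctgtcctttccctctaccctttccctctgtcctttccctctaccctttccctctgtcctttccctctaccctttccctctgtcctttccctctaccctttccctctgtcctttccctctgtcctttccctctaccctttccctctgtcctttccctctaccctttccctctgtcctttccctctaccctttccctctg

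The windows differed in both respects that recur below, repetition and cutting sites. The Zswim6 and Ndst3 windows repeated a short unit from end to end and held 0 sites. The chromosome 4 window also repeated a unit, but 1 site fell within each copy and the window held 5. The Smtn window held 5 sites and the Malat1 window 4, with no repeated unit. The Gm21738 window held 0 sites and had a GC content of 35.0%.

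The KO RNase R- lists held the most broad peaks and the WT RNase R+ lists the largest share of them. Replicates 1 and 2 held 167 and 197 broad peaks in KO RNase R-, 74 and 64 in KO RNase R+, 40 and 30 in WT RNase R-, and 27 and 41 in WT RNase R+. As a share of each list these were 0.639% and 0.617% in KO RNase R-, 1.18% and 1.08% in KO RNase R+, and 1.05% and 1.42% in WT RNase R-. In WT RNase R+ the share was 10.4% (95% exact binomial interval 6.96 to 14.7) in replicate 1 and 12.1% (8.79 to 16.0) in replicate 2, and these intervals cover counting error only. The upper limits of the intervals of the other lists reached at most 2.02%. The intervals count peaks within a library, so they make no test between groups. The WT RNase R+ lists were also by far the shortest, with 260 and 340 peaks against 26117 and 31920 in KO RNase R-.

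**Figure D1:**
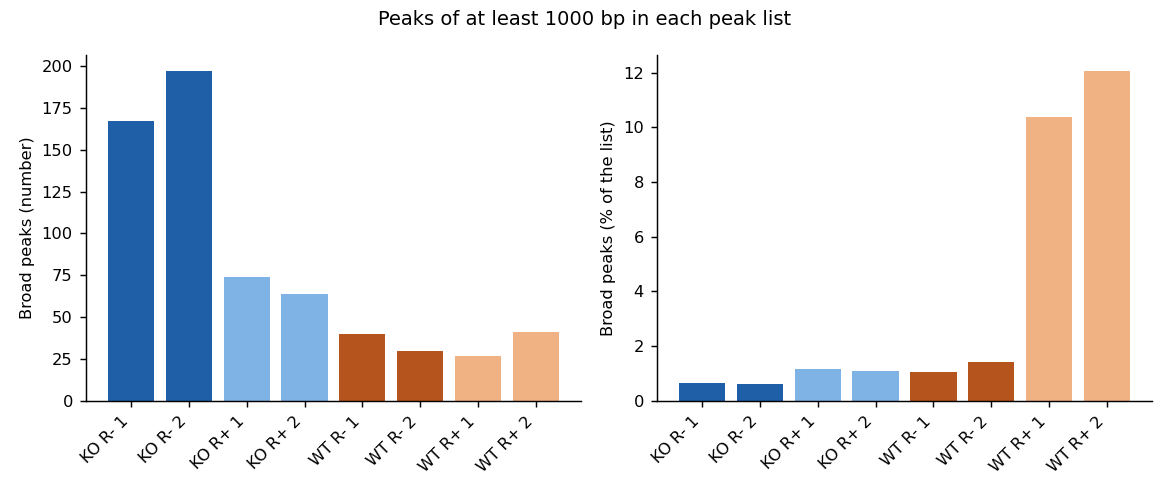
Number of peaks of at least 1000 bp in each of the 8 lists (left) and their share of the list in percent (right), with 1 bar per list, R- and R+ for RNase R- and RNase R+ and the replicate number last. The KO RNase R- lists hold 167 and 197 broad peaks, and the WT RNase R+ lists hold 27 and 41, which make up 10.4% and 12.1% of those lists.

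Broad peaks took up 45.5% and 44.6% of the bases covered in the WT RNase R+ lists and between 2.99% and 6.63% in the other lists. Their median width was 1240 and 1245 bp in KO RNase R-, 1262 and 1193 bp in KO RNase R+ and 1210 and 1339 bp in WT RNase R-. In WT RNase R+ it was 2659 and 1669 bp, and the longest peaks measured 13528 and 13575 bp. The lists also differed in the lowest level the peak caller expected, which is the mean number of fragments per base it took as background. This was 0.843 to 0.924 in the KO lists and 0.425 to 0.558 in the WT lists. The number of peaks in a list depends on sequencing depth. Among the pulled-down libraries, the study's totals of uniquely mapped reads were far lower in both WT RNase R- libraries than in any KO library. They were also far lower there than in both WT RNase R+ libraries, which lay on either side of the KO libraries. The KO RNase R- and WT RNase R- lists thus differed in depth as well as in genotype. The part of depth in the differences between lists was not tested.

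The regions were seldom broad everywhere. Of the 353 regions, 204 were broad in 1 list, 82 in 2, 29 in 3, 30 in 4, 2 in 5, 3 in 6 and 3 in all 8. A shorter peak was often called where the broad one was missing. Of the 259 regions broad in KO RNase R-, 103 (39.8%) were broad in both replicates, 153 were called in the other replicate with shorter peaks of a median 692 bp, and 3 were not called there. Of all regions called in KO RNase R-, 32.2% were called in both replicates, and the share was 22.7% in KO RNase R+, 11.4% in WT RNase R- and 36.2% in WT RNase R+. The share broad in both replicates was 41.8% of 91 regions in KO RNase R+, 38.8% of 49 in WT RNase R- and 51.1% of 45 in WT RNase R+. In the same order, 8, 1 and 8 of these regions were not called at all in the other replicate. The shares over all regions count any call, so they compare with these counts and not with the shares broad in both.

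Most regions broad in KO RNase R- had a peak in KO RNase R+ as well, and a minority had one in WT. Of those 259 regions, 205 were called in KO RNase R+ (79.2%), 54 of them again with a broad peak, and 42 were called in WT RNase R- (16.2%). Of all 50279 regions, 19.5% were called in KO RNase R+ and 10.5% in WT RNase R-. Of the 49 regions broad in WT RNase R-, 37 were called in KO RNase R- (75.5%). Of the 45 regions broad in WT RNase R+, 16 were called in KO RNase R- (35.6%) and 23 in KO RNase R+ (51.1%). Of all regions, 87.1% were called in KO RNase R- and 0.845% in WT RNase R+. The shares of these unequal sets are given for each set on its own and carry no test. All regions include shorter ones and ones without a peak in the group that chose the set. Their shares are therefore no matched background.

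By genotype, 269 regions were broad in KO lists only, 57 in WT lists only and 27 in both. Of the 269, 194 were broad without RNase R only, 30 with RNase R only and 45 with both treatments. Of the 57, 22 were broad without RNase R only, 30 with RNase R only and 5 with both.

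**Figure D2:**
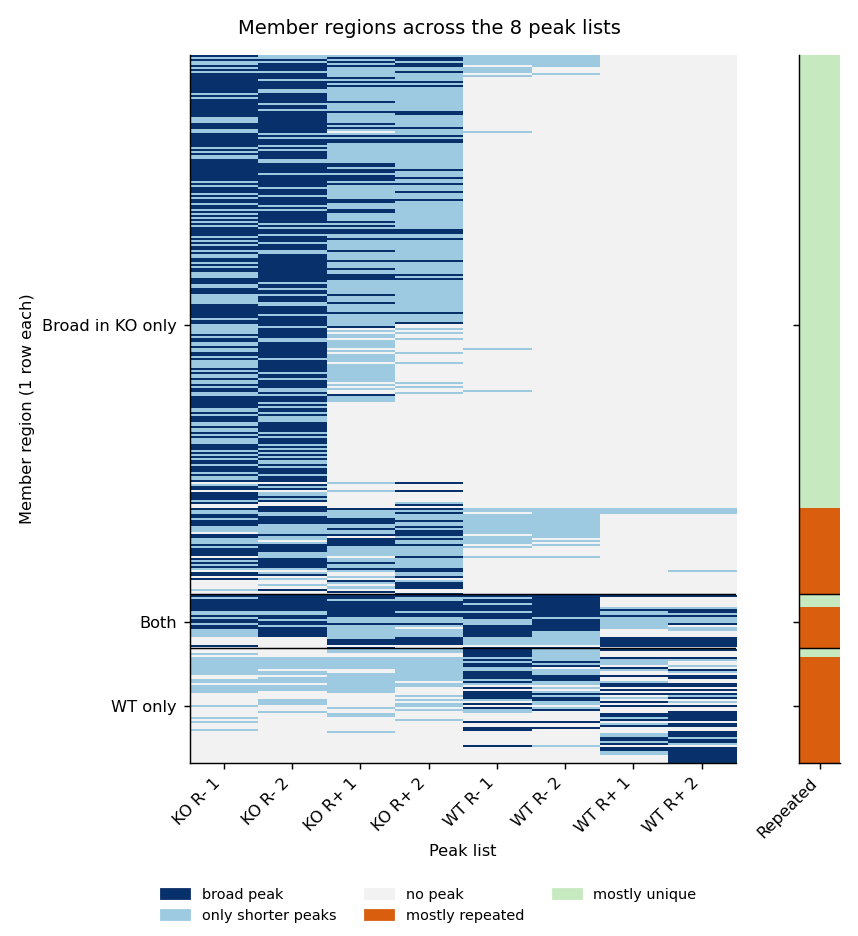
Each row is 1 of the 353 regions and each column 1 of the 8 lists, with dark blue for a peak of at least 1000 bp, light blue for shorter peaks only and grey for no peak; the side strip marks regions whose sequence is mostly repeated in the genome. The 269 regions broad in KO only are mostly blank in WT columns and 226 of them are mostly unique, while 53 of the 57 regions broad in WT only are mostly repeated.

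The kind of sequence differed between these classes, which the widths defined, so the counts carry no test. A region was called repeated where at least 50% of its 31-base words occurred elsewhere or again in the genome, a limit set after the data were seen. By this measure 43 of the 269 regions broad in KO only were repeated (16.0%), against 53 of the 57 broad in WT only (93.0%) and 21 of the 27 broad in both (77.8%). Of the shorter peaks of the same lists, 33.0% to 45.2% were repeated in the KO lists and 39.2% and 47.3% in WT RNase R-, and these ranges overlapped. In WT RNase R+ 73.4% and 74.9% of the shorter peaks were repeated, above all other lists. Among broad peaks of single lists, 80.0% were repeated in both WT RNase R- lists, 92.6% and 95.1% in WT RNase R+ and 14.7% to 48.4% in the KO lists. Regions were called tandem repeats where at least 50% of their 31-base words recurred within the region itself, whether or not the copies followed each other. These were 31 regions of KO only (11.5%), 39 of WT only (68.4%) and 16 of both (59.3%). The unit or period of a region is given below as the shortest spacing at which it matched itself best or nearly so. In these regions it ran from 2 to 702 bp, and it did not enter the call.

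Sites of the 4 enzymes were scarce in the WT regions. The genome has 18.5 sites per kb. The median was 15.1 sites per kb in regions broad in KO only, 1.13 in WT only and 1.68 in both. Under 2 sites per kb were found in 18 of 269, 38 of 57 and 15 of 27 regions. The longest stretch without a site had a median of 243 bp in KO only and 1054 bp in WT only, where the median region was 1304 bp long. These enzymes leave such stretches whole, and their part in the width was not tested.

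**Figure D3:**
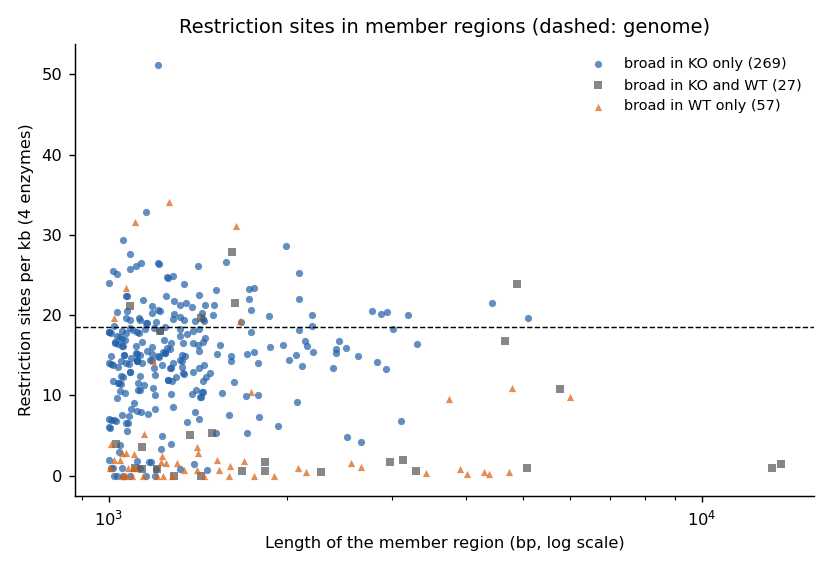
Each point is 1 region, with its length in bp on a log scale on the x axis and its number of restriction sites of the 4 enzymes per kb on the y axis; circles are broad in KO only, squares in KO and WT and triangles in WT only, and the dashed line is the genome at 18.5 sites per kb. Most triangles lie near 0, with a median of 1.13, and the circles have a median of 15.1.

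Genes held most of the KO regions. The summit lay in an annotated gene in 229 of 269 regions broad in KO only (85.1%), 25 of 57 in WT only (43.9%) and 13 of 27 in both (48.1%). Of the 269, 93 lay within 1000 bp of a transcript start inside or outside a gene, 56 in other exons, 83 in introns and 37 elsewhere. Only 2 of the 57 WT regions lay at a start. The peak lists do not use strand, so where genes overlap the gene given is the one at the summit, and sense and antisense genes cannot be told apart.

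Each measure was then compared between broad and shorter peaks of the same list, with a sign-flip permutation test over the 8 lists. This test is exact and two-sided, its smallest p is 0.0078, and Benjamini-Hochberg adjustment covered 8 tests. The broad peaks were located more often in genes, at promoters and in places where the caller expected a high level, and were more often found again.

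The share of broad peaks with a summit in a gene ran from 71.9% to 85.6% in the KO lists, against 50.1% to 54.6% of the shorter peaks. It was 47.5% and 43.3% in WT RNase R-, against 45.2% and 46.6%, and 66.7% and 56.1% in WT RNase R+, against 42.5% and 41.5%. Broad peaks were thus higher in 7 of 8 lists, by a mean of 19.2 percentage points ± 13.7 (SD, n = 8 lists; exact permutation p = 0.0234, adjusted p = 0.0469). For summits within 1000 bp of a transcript start, the KO lists ranged from 34.4% to 40.5% of broad and 10.2% to 13.3% of shorter peaks. The WT lists ranged from 5.00% to 18.5% and from 4.35% to 8.15%. The mean difference was 16.4 percentage points ± 11.8 (SD, n = 8 lists; higher in 7 of 8; exact permutation p = 0.0156, adjusted p = 0.0417). With 7 lists, the call for genes was kept only when WT RNase R- replicate 2 was the one left out and the call for promoters only when WT RNase R- replicate 1 was, with adjusted p of up to 0.0741 and 0.0625 otherwise. The promoter call was also lost without peaks of high expected level (mean 9.47 percentage points, exact permutation, adjusted p = 0.188).

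A high expected level, taken as more than 3 times the lowest level of the list, marked 11.98% and 12.2% of the broad peaks in KO RNase R-, against 3.75% and 3.73% of the shorter ones. It marked 66.7% and 58.5% of the broad peaks in WT RNase R+, against 36.5% and 32.4%. The mean difference was 22.2 percentage points ± 9.11 (SD, n = 8 lists; higher in 8 of 8; exact permutation p = 0.0078, adjusted p = 0.0313). A called peak of the other replicate of the group covered the summit of 78.0% to 96.7% of broad peaks, against 14.3% to 54.5% of shorter ones. This difference was 51.2 percentage points ± 12.6 (SD, n = 8 lists; higher in 8 of 8; exact permutation p = 0.0078, adjusted p = 0.0313). The summit is a single base, so the width of the peak looked for does not enter, while the width of the covering peak does. The replicates of a group were looked up in each other, so their values rest on the same overlaps. For this measure the 8 lists are thus not 8 independent values, as the test takes them to be. Over the 4 groups the smallest p of the sign-flip test is 0.125. Broad peaks were also higher, with a median summit of 26 and 27 fragments against 13 and 14 in KO RNase R-.

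The difference in GC content did not pass the test after adjustment. The median was 54.8% and 53.4% in KO RNase R- against 42.3% in both replicates of shorter peaks, and 53.6% and 55.6% in WT RNase R- against 42.3% and 42.9%. In WT RNase R+ replicate 1 the order turned, with 41.9% in broad and 49.7% in shorter peaks. Over the 8 lists the mean difference was 6.64 percentage points ± 6.96 (SD; exact permutation p = 0.0391, adjusted p = 0.0625).

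The difference in the number of sites per kb did not pass either. Broad peaks held 11.7 to 15.8 sites per kb in the KO lists, against 5.76 to 6.75 in shorter peaks, and 2.42 to 8.88 in the WT lists, against 2.18 to 9.97. The mean difference over all lists was 3.63 sites per kb ± 4.57 (SD, n = 8 lists; exact permutation p = 0.102, adjusted p = 0.116). The difference was 5.97 to 9.15 in the 4 KO lists and -1.49 to 0.46 in the 4 WT lists. In the KO lists 22.0% to 33.2% of the shorter peaks held no site, against 1.52% to 10.9% of the broad peaks. In WT RNase R- the order turned, with 11.5% and 14.4% against 12.5% and 30.0%. A longer peak can span more restriction fragments, so site density is tied to the width that chose the peaks. The test above cannot separate the measure from width, and neither can the next test. A test of KO against WT lists within RNase R treatment, added after the values were seen, gave 8.28 sites per kb and p = 0.0556 by exact permutation, the smallest its 36 arrangements allow (adjusted p = 0.167 over 6 such tests). The same test gave 20.4 percentage points for the promoter share, with the same p and adjusted p.

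**Figure D4:**
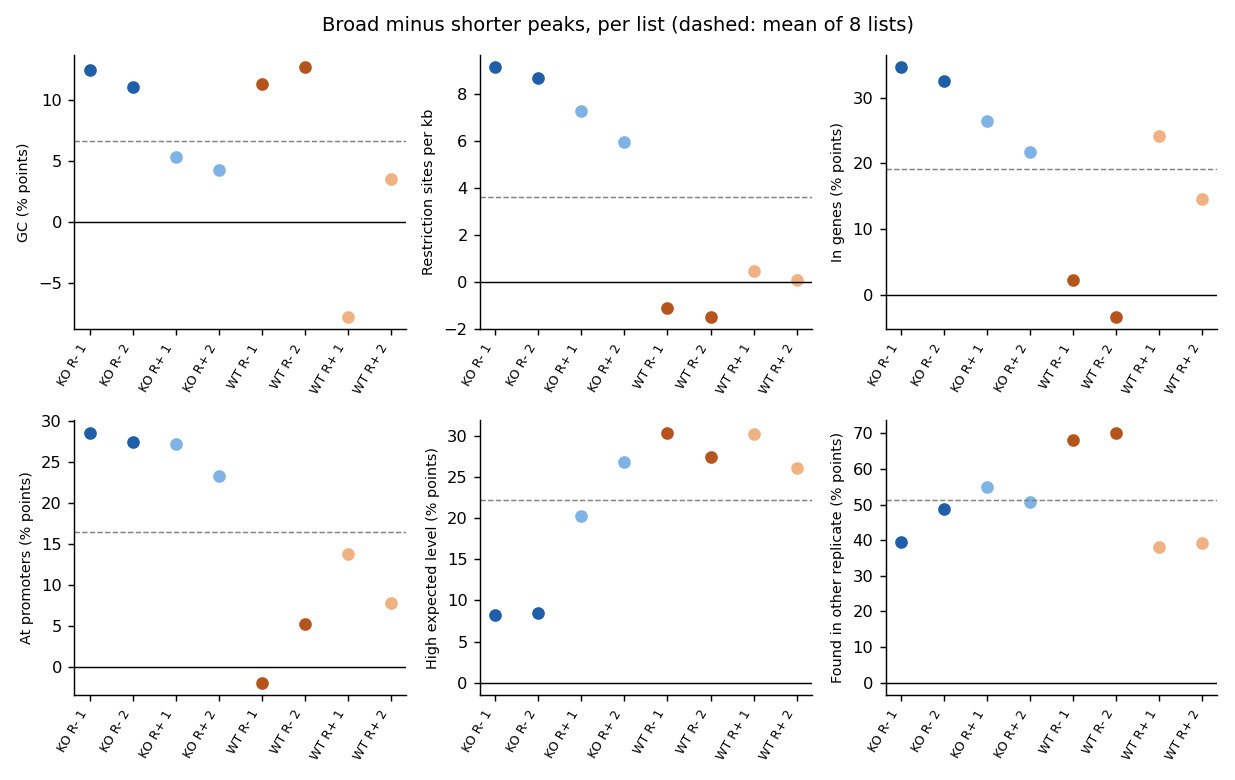
Value of the broad peaks minus that of the shorter peaks in each of the 8 lists (points), for 6 measures; the black line is no difference and the dashed line the mean of the 8 lists. The shares with a high expected level and found in the other replicate lie above 0 in all 8 lists, while the difference in sites per kb is 5.97 to 9.15 in the KO lists and -1.49 to 0.46 in the WT lists.

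The ends of the peaks often lay at enzyme sites. Within 9 bp of a site were 78.5% and 79.8% of the ends of shorter peaks in KO RNase R- and 71.3% and 71.1% in KO RNase R+. At points 100 bp inside those peaks the share was 3.11% to 4.95%. The ends of shorter peaks lay at a site in 63.0% and 59.7% of cases in WT RNase R- and 33.0% and 36.1% in WT RNase R+. At 100 bp inside them the share was 9.73% and 9.20%, and 2.36% and 1.84%. For the ends of broad peaks it was 67.1%, 71.8%, 57.4% and 58.6% in the 4 KO lists, 48.8% and 38.3% in WT RNase R-, and 25.9% and 28.0% in WT RNase R+. At 100 bp inside the broad peaks it was 12.5% to 15.7% in the KO lists, above the share inside shorter peaks. It was 8.75% and 6.67% in WT RNase R-, below the share inside shorter peaks, and 3.70% and 3.66% in WT RNase R+, above it. The share at the ends was lower in broad than in shorter peaks in all 8 lists, with no test run on it.

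Only 3 regions were broad in all 8 lists, and each was a repeat or lay where the caller expected many fragments. The region in an intron of Zswim6 (chr13:107858209-107860042, ENSMUSG00000032846.10) was a tandem repeat of a 39-bp unit with 3 sites in 1834 bp. Its widest peak measured 1724 and 1723 bp in KO RNase R-, 1735 and 1745 bp in KO RNase R+, 1232 and 1750 bp in WT RNase R-, and 1834 and 1831 bp in WT RNase R+. The fold over the expected level was 8.51 and 12.8, 13.9 and 11.1, 9.66 and 11.1, and 29.6 and 40.05 in the same order. The WT RNase R+ lists were thus above all others in fold, and the groups hardly differed in width apart from 1 WT RNase R- replicate.

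The region on chromosome 4 outside genes (chr4:118547102-118548732) was a tandem repeat of a 44-bp unit with 35 sites, at most 88 bp apart. It was 1459 to 1620 bp wide in the 8 lists. Its fold was 48.1 and 63.3 in KO RNase R-, 68.1 and 39.8 in KO RNase R+, 8.76 and 8.85 in WT RNase R-, and 23.9 and 29.3 in WT RNase R+. The summit height did not follow that order. It was 131 and 149 fragments, 130 and 96, 162 and 171, and 479 and 660, while the expected level was 0.924 to 1.74 in the KO lists and 17.6 to 21.5 in the WT lists.

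The region over the predicted gene Gm21738 (chr14:19416659-19419637, ENSMUSG00000095280.1) had 5 sites in 2979 bp and a GC content of 34.6%. Its widest peak was 1027 and 1033 bp in KO RNase R-, 2462 and 2581 bp in KO RNase R+, 1345 and 1330 bp in WT RNase R-, and 2973 and 2977 bp in WT RNase R+. The RNase R+ peaks were thus wider in both genotypes. The caller expected between 4515 and 8690 fragments per base there, so its folds stayed at 1.56 to 6.75.

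**Figure D5:**
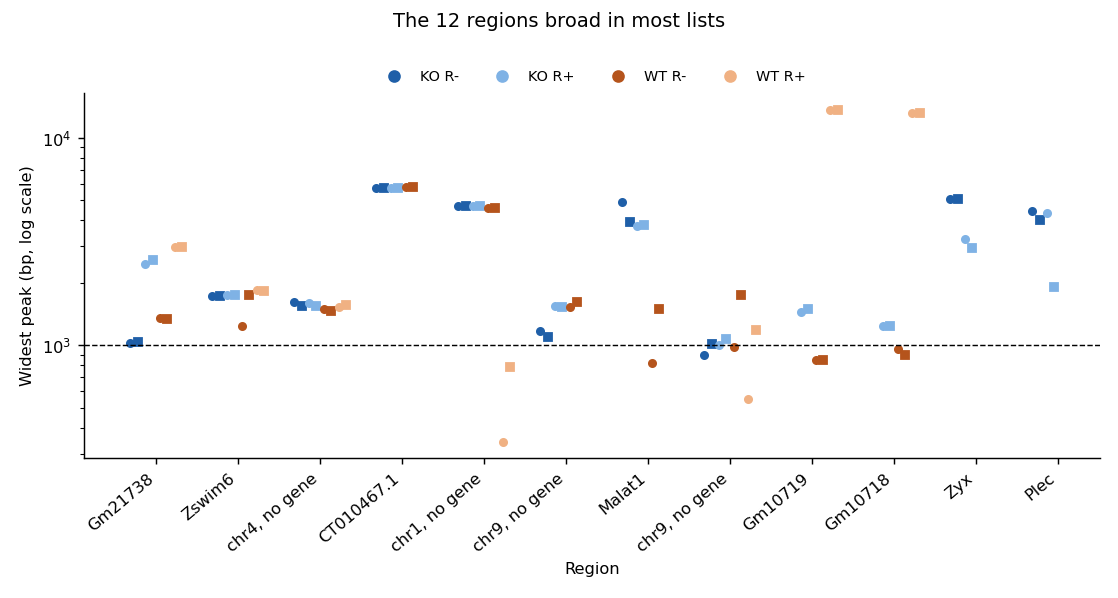
Width of the widest peak in bp (log scale) for the 12 regions broad in the most lists, with 1 point per list, circles for replicate 1 and squares for replicate 2; R- and R+ stand for RNase R- and RNase R+, the dashed line is 1000 bp and a missing point means no peak. The ribosomal region CT010467.1 measures 5734 to 5763 bp in its 6 lists, and the Gm10719 and Gm10718 peaks measure 13126 to 13575 bp in WT RNase R+ and at most 1485 bp elsewhere.

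The regions broad in 6 lists were 3 in number. The ribosomal RNA gene CT010467.1 on chromosome 17 (chr17:39842988-39848753) carried the most even peak, of 5737, 5734, 5736 and 5738 bp in the KO lists and 5762 and 5763 bp in WT RNase R-, with folds of 17.1 to 25.5. It was not called in WT RNase R+. A region on chromosome 1 (chr1:24611537-24616193) matched mitochondrial DNA over 99.9% of its length, at 99.9% identity. It was 4655 or 4657 bp wide in the KO lists, with folds of 134 and 127 in RNase R- and 165 and 190 in RNase R+. In WT RNase R- it was 4596 bp wide in both replicates, at folds of 40.6 and 41.1, and in WT RNase R+ the widest peaks were 343 and 784 bp at folds of 2.83 and 2.59. This nuclear copy and mitochondrial DNA itself thus share nearly all their sequence, and which of them gave the reads was not tested. The region chr9:124256352-124257965 had folds of 8.10 to 10.6 in the KO lists and 15.8 and 14.3 in WT RNase R-, with 1100 to 1614 bp, and was not called in WT RNase R+.

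Among the other regions of the 12, chr9:15134264-15136538, with a 6-bp unit, was called in all 8 lists and broad in 5, at widths of 550 to 1749 bp and folds of 3.59 to 7.91. Gm10719 (chr9:3009216-3022790) and Gm10718 (chr9:3023269-3036397), predicted genes near the start of chromosome 9, held the 4 longest single peaks. Both had a repeat period of 234 bp, the unit length known for the mouse major satellite, to which they were not matched here. In WT RNase R+ a single peak of 13528 and 13575 bp covered the Gm10719 region, at folds of 15.1 and 13.6. In KO RNase R+ 10 peaks of up to 1447 and 1485 bp lay there at folds of 3.72 and 4.27, and in WT RNase R- 6 peaks of at most 849 and 844 bp at folds of 2.34 and 2.66. Neither region was called in KO RNase R-. At Gm10718 the WT RNase R+ peaks measured 13126 and 13129 bp and the widest KO RNase R+ peaks 1233 and 1241 bp. The peaks of both regions were thus widest by far in WT RNase R+, shorter in KO RNase R+ and below the limit in WT RNase R-.

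Malat1, an abundant noncoding RNA of nuclear speckles, was broad in 5 lists (chr19:5797907-5802776). Its widest peaks were 4870 and 3922 bp in KO RNase R-, 3739 and 3793 bp in KO RNase R+ and 820 and 1500 bp in WT RNase R-, with no peak in WT RNase R+. The folds were 173 and 178, 93.0 and 63.6, and 11.4 and 9.40. The KO values lay above the WT values in both measures without overlap. The region had 23.8 sites per kb and 3.46% repeated words, and so belonged to the unique, often-cut regions.

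The regions broad in all 4 KO lists and in no WT list numbered 22, of which 18 were mostly unique, 20 lay in genes and 17 were not called in any WT list. Of all 50279 regions, 94.0% were called in at least 1 KO list and 11.0% in at least 1 WT list, so most regions of any width lacked a WT peak. Over all regions, 2.96% were called in the 4 KO lists and 0.129% in the 4 WT lists. Genes of these regions included Ncl, Col6a3, Smtn, Ubb, Pitpna, Pnn, Ell2, Gm26621, Plec, Mtch1, Hsp90ab1, Daam2, Ehbp1l1, Csf1, Lrrc41, Zyx, Actn4 and Ppan, with 2 regions in Csf1. Apart from Zyx and Plec, which follow from the rule, the genes named in the following paragraphs from this set were picked after their values were seen.

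Zyx, the gene of the focal adhesion protein zyxin, had the longest of the KO-only regions (chr6:42350993-42356076, at the promoter). Its widest peaks were 5035 and 5045 bp in KO RNase R- and 3238 and 2929 bp in KO RNase R+, where the region split into 2 and 3 peaks, and the folds were 36.5 and 37.6, and 29.1 and 21.8. The RNase R- values were the higher in both measures.

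Plec, the gene of the cytoskeletal linker plectin, had a broad exon region (chr15:76177969-76182391) of 4423, 3997, 4334 and 1897 bp in the KO lists, with folds of 23.5, 13.9, 16.6 and 6.94. It had 2 more member regions, of 1159 and 1185 bp. Smtn, the gene of smoothelin, an actin-associated protein of smooth muscle, had an intron region (chr11:3518023-3520898) of 2695 and 2872 bp in KO RNase R- and 2206 and 2215 bp in KO RNase R+, at folds of 21.7, 30.1, 18.6 and 16.4. Actn4, the gene of the actin crosslinker alpha-actinin 4, measured 1439 and 1381 bp in KO RNase R- and 1090 and 1150 bp in KO RNase R+. In Zyx, Smtn and Actn4 both RNase R- replicates were wider than both RNase R+ replicates, while in Plec they overlapped. None of these 4 regions was called in a WT list.

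Ubb, a polyubiquitin gene, had peaks of 1388 and 1323 bp in KO RNase R- and 1034 and 1040 bp in KO RNase R+, at folds of 17.9 and 25.3, and 15.1 and 15.3, and in WT a single peak of 278 bp in RNase R- replicate 2 at a fold of 7.39. It consists of repeated ubiquitin units, and 64.8% of the words of its region recurred. Hsp90ab1, a chaperone gene, had peaks of 1159, 2113, 2143 and 1000 bp in the KO lists, the last of them exactly at the limit.

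Csf1, the gene of the macrophage colony-stimulating factor, had a pair of intron regions, of 1757, 1356, 1127 and 1150 bp and of 1713, 1587, 1445 and 1547 bp in the KO lists. Ncl, the gene of the nucleolar protein nucleolin, had a region of 1060, 1059, 1053 and 1109 bp in the KO lists. The folds there were 39.5, 35.9, 38.5 and 25.4. This region also overlapped Snord82, and its summit lay within 1000 bp of a transcript start. Which gene that start belongs to was not determined. Ncl had 1 more region that was broad in KO RNase R- only. Prrx1, a homeobox gene of mesenchymal cells, had the third of the longest regions broad in KO only, with a peak of 3112 bp in KO RNase R- replicate 2 and 1127 bp in replicate 1. At Prrx1 the width thus depended on whether neighbouring peaks were joined, since replicate 1 had 3 peaks there.

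The genes with the most member regions were Ulk4 with 4, Plec and Myh9 with 3 each, and 21 genes with 2, of which Csf1 and Prrc2a had the largest sums of broad widths. Each Myh9 region, in the gene of the non-muscle myosin heavy chain IIA, was broad in 1 KO RNase R- replicate, at 1155, 1037 and 1035 bp. The Prrc2a exon region was broad in 3 KO lists, at 2035, 2934 and 1687 bp.

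Some of the gene lists that were searched had members with a broad region, and others had none. Among 53843 annotated genes, 320 overlapped a member region (0.594%), and among 21755 protein-coding genes 252 did (1.16%). Of 11 annotated nuclear noncoding RNA genes 3 did, namely Malat1, Neat1 and Gas5. Neat1, the scaffold RNA of paraspeckles, had peaks of 2624 and 2626 bp in KO RNase R- and of 1270 and 524 bp in KO RNase R+, and Gas5, a host gene of small nucleolar RNAs, was broad in 1 list at 1222 bp. Of 14 fibroblast matrix and cytoskeleton genes 2 did. Fn1, the fibronectin gene, reached 1415 bp in KO RNase R- replicate 1 and 315 bp in replicate 2, and Sparc, a matrix protein gene, reached 793 and 1258 bp. Of 13 immediate early and growth response genes 2 did. Srf, the gene of serum response factor, measured 1016 and 1130 bp in KO RNase R- and 1012 and 865 bp in KO RNase R+, and Ier2 was broad in 1 list at 1388 bp. None of 14 genes of R-loop processing and none of 67 replication-dependent histone genes overlapped a broad region. The lists are small, and the counts are given as descriptions.

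The regions broad in WT lists only were led by long tandem repeats. An intron of Ulk4, a gene of a protein kinase family member, held 4 of them within chr9:121220004-121239598, all with a 112-bp period. The longest had a single peak of 5986 and 5960 bp in the WT RNase R+ lists, at folds of 33.0 and 25.1, and shorter peaks of 288 to 477 bp in the 4 KO lists, at folds of 5.37 to 8.14. It was not called in WT RNase R-. The next longest measured 4779 and 4622 bp, and 3698 and 3752 bp, in WT RNase R+. These repeats held 9.59 to 10.9 sites per kb, so the absence of sites was not common to all WT regions.

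A repeat with a 46-bp unit on chromosome 7 (chr7:64480194-64484928) was called in the WT RNase R+ lists alone, at 4690 and 4510 bp and folds of 20.3 and 11.0. It had 0.42 sites per kb. An intron of Ndst3, a gene of heparan sulfate synthesis, was broad in all 4 WT lists and in no KO list (chr3:123676557-123680854). Its 26-bp unit left 3985 bp without a site. Its widest peaks were 2767 and 3044 bp in WT RNase R-, 4166 and 4298 bp in WT RNase R+ and 430 and 677 bp in KO RNase R+, at folds of 12.9 and 16.1, 30.2 and 39.5, and 7.16 and 7.58. The WT values did not overlap the KO values, and within WT the RNase R+ peaks were the wider and the higher. The only other region broad in all 4 WT lists and no KO list lay in AC126695.1 on chromosome 18.

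Enrichment was compared between groups where all lists had a peak, which left 14 regions, or 3.97% of the 353; of all 50279 regions 34 (0.0676%) were called in all 8 lists. Of the 14 regions 13 were repeated. Their median log2 fold was 2.91 and 2.99 in KO RNase R-, 2.79 and 2.86 in KO RNase R+, 3.14 and 3.07 in WT RNase R-, and 2.67 and 2.79 in WT RNase R+. The KO minus WT difference was -0.03 (exact stratified permutation p = 0.722, adjusted p = 0.722), at -0.15 without and 0.09 with RNase R. Its sign turned to 0.34 with a width limit of 1500 bp, to 0.86 with −log10 p in place of fold and to 0.030 without WT RNase R- replicate 1. The RNase R+ minus RNase R- difference was -0.25 (exact stratified permutation p = 0.0556, adjusted p = 0.0741), at -0.13 in KO and -0.37 in WT. The p of 0.0556 is the smallest that 36 arrangements allow, so neither effect could pass 0.05 in this design. All 4 RNase R+ lists lay below all 4 RNase R- lists. When at least 50% of the region had to be covered in each list, only 4 regions remained.

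The coding strand of the unique KO regions tended to hold more G than C. The GC skew, the excess of G over C divided by their sum, had a median of 0.167 in the 189 unique regions broad in KO only with a summit in a protein-coding gene, and 157 of them were above 0 (83.1%). In 8178 shorter, unique peaks of KO RNase R- replicate 1 in protein-coding genes the median was 0.152 and 63.1% were above 0. A longer stretch averages over more bases, so shares above 0 are not directly comparable, and no test was run.

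Peaks just inside and just outside the limit of 1000 bp had close values. The narrowest broad peaks were 3 peaks of 1000 bp and the widest shorter ones 2 peaks of 998 bp. The 79 peaks less than 50 bp above the limit had a median fold of 10.1 and GC content of 53.4%, and the 124 peaks up to 50 bp below it had 9.97 and 54.1%.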

How the data were processed

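According to their methods, the authors removed adapters with cutadapt and mapped read pairs to GRCm38 (mm10) with Bowtie2. They discarded duplicates and reads that matched poorly or at several places with SAMtools 1.1. Peaks came from MACS2, run per replicate with a q limit of 0.001. Which control library MACS2 received is not given in the sources used here. Each deposited peak has 10 columns. The deposited fold is a ratio, summit height plus 1 over expected level plus 1. Significance is deposited as −log10 p and −log10 q, and the deposited score was left aside. The 3885 peak names of WT RNase R- replicate 1 read as replicate 2, but the values are its own, and the list was used as labelled.

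Widths were the end minus the start. Peaks of at least 1000 bp were merged with bedtools 2.31.1, and the exact binomial intervals are at 95%. Heights and expected levels, which the lists do not hold, were recovered as the whole number that satisfies fold and p under a Poisson distribution, within 0.003 of the −log10 p, for all 77297 peaks, which was tested on simulated data. Genes, exons and transcript starts within 1000 bp of the summit came from GENCODE M21, and sequence from RefSeq's GRCm38.p6. Symbols Ccn1 and Ccn2 were looked up as Cyr61 and Ctgf. Mitochondrial matches came from blastn 2.17.0 at an e-value of 1e-10. Tests were exact permutations over lists, computed in Python 3.11.15 with numpy 2.4.6. Lists with under 5 broad peaks were left out, which applied only to both WT RNase R+ lists in the alternative without repeated peaks.

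The regions named were the 12 broad in the most lists, the 5 longest peaks, the 3 longest of KO only, WT only and RNase R+ only, up to 5 genes with the most regions, and members of 5 gene lists. The members and the lists were chosen with earlier results of these data known. Alternatives were other widths, a −log10 q of at least 5, left-out libraries, other windows and overlaps, and, added after seeing the data, the removal of repeated peaks. A gene of the member regions is not reported here.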

Additional observations from a re-analysis of the deposited data

Results flagged for a closer look

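Peaks of at least 1000 bp also lay on sequences outside chromosomes 1 to 19 and X, which no comparison above used, and 77 of them were counted over the 8 lists. Of these, 58 lay on unplaced or unlocalized sequences, in all 8 lists and up to 24816 bp wide, and 11 lay on chromosome Y, in 6 lists and up to 2708 bp wide. The other 8 lay on mitochondrial DNA, 1 in each list. They spanned all 16299 bp in the KO lists and in WT RNase R- replicate 1, and 16264 bp in WT RNase R- replicate 2. In WT RNase R+ they measured 2633 and 2732 bp. Their folds were 461 and 529 in KO RNase R-, 477 and 585 in KO RNase R+, 69.7 and 88.6 in WT RNase R-, and 2.96 and 3.38 in WT RNase R+. All KO folds lay above all WT folds, and no test was run.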

How the results depend on the processing

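The differences between broad and shorter peaks kept their direction under every alternative that was run, but not their side of the threshold. With the replicates of a group averaged first, the means were 19.2 percentage points for genes, 16.4 for promoters, 22.2 for a high expected level and 51.2 for peaks found again, and no such test of 4 groups can pass. Without mostly repeated peaks, an alternative chosen after seeing the data, both WT RNase R+ lists fell out with 2 broad peaks left in each. Over the other 6 lists the means were 25.6, 27.7, 28.8 and 58.1, each at the smallest p that 6 lists allow (exact permutation p = 0.0313, adjusted p = 0.0625). In every alternative the adjustment took the new p of 1 result and kept all other p-values at their main values. That adjustment, and not the 6 lists alone, left these calls short of the threshold. In protein-coding genes alone the difference was 14.5 percentage points (exact permutation, adjusted p = 0.0938), and without peaks of high expected level the promoter difference was 9.47 (adjusted p = 0.188). By exact permutation, the GC difference passed at a width of 750 bp (6.55 percentage points, adjusted p = 0.0375), without peaks of high expected level (9.02, adjusted p = 0.0208) and without WT RNase R+ replicate 1 (8.70, adjusted p = 0.0313), and the difference in sites passed at 1500 bp (5.07 per kb, adjusted p = 0.0208). Site density is tied to peak width at this limit too. Leaving out 1 library at a time gave 5.76 to 8.70 percentage points for GC, 16.9 to 22.4 for genes and 14.7 to 19.03 for promoters. The KO minus WT difference in log2 fold ranged from -0.14 to 0.030, with the turned sign without WT RNase R- replicate 1. It also turned to 0.86 with −log10 p in place of fold and to 0.34 at a width of 1500 bp. The cause was not tested. With the replicate block the genotype and RNase R differences were -0.03 (exact permutation p = 0.75) and -0.25 (p = 0.125), and same-numbered libraries did not vary together (correlations of replicate differences -0.60 to 0.23). Leaving out regions of high expected level left 0 of the 14 regions, so this gave no value. There were 1576 peaks of at least 750 bp and 193 of at least 1500 bp, and 4 regions were called in all lists with at least 50% covered. The study states read totals per library, which entered no calculation here, and peak widths were not compared at equal depth.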
